A study of Arabidopsis thaliana with 12 samples.

Results

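The brightest named genes of an Arabidopsis thaliana expression array were followed across plants after 1 h of high light and plants in normal light. The genes were chosen by their deposited intensity: a gene was included if a probe annotated with exactly 1 gene had a mean of 2 or more over all 12 samples, and 7 genes of photosynthesis and other pathways were left out of the set by name. This gave 25 probes for 25 genes, out of 3439 probes in the table, of which 692 name 1 gene. Of the 7 left-out genes, 5 also reached the limit, so rankings by brightness hold only among the 25. The high light group holds 6 samples of wild type plants of the Columbia 0 ecotype exposed to 1000 µE for 1 h, and the normal light group holds 6 samples of the same wild type grown at 80 µE, with 0 h in their titles. All 12 samples are total RNA of untransformed plants; plant age and tissue are not given in the labels, and the labels name no control left at 80 µE over the same hour, so light and elapsed time cannot be told apart. Whether samples of a group are separate plants or cultures is not stated, so p-values measure only the spread between them, which may be technical.

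Strong light reaching a leaf faster than the Calvin cycle can use it over-reduces the electron carriers of the thylakoid, and plants adjust the transcripts of many nuclear genes for plastid proteins within the first hours. In green tissue a few transcripts take up much of the messenger pool, so a rise or fall of one of them alters the share left to all others. Such a pool is therefore read both as levels of single genes and as shares of the whole.

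The intensities are in arbitrary units on a linear scale with a ceiling at 100. Brightness depends on the probe as well as on the transcript, so "brightest" does not order the genes by abundance. Sums and shares add intensities across probes, so they are parts of the array signal and do not measure parts of the messenger pool. Because the mean over all samples chose the set, the high levels themselves are not a result. The 3 genes just above the limit were AT3G47650 at 2.13, AT1G03810 at 2.11 and AT5G06790 at 2.03, and the 3 just below it were AT3G06870 at 1.98, AT4G14050 at 1.91 and CML30 at 1.86. The group mean reached 2 in both groups for 18 of the 25. AT4G39760, AT3G57630, AT4G29890, AT4G35660, AT3G47650 and AT5G06790 reached it in high light alone, and AT1G03810 in normal light alone, so that the choice of these 7 favours a difference between groups. No value of the 25 genes was 0 in any sample.

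The summed intensity of all probes was 3551 ± 53.3 in high light and 3028 ± 79.9 in normal light (SD, n = 6 each). The median probe stood at 0.348 ± 0.0067 in high light and 0.124 ± 0.0066 in normal light, so the deposited columns are not on one level. Samples numbered 1 and 2, 3 and 4, and 5 and 6 of a group resembled each other. Over the 25 genes, the median absolute log2 difference was 0.067 to 0.094 within these pairs in high light, against 0.18 to 0.34 for other pairs of that group, and 0.0997 to 0.18 against 0.1997 to 0.42 in normal light. Between the groups it was 0.44 to 0.97. A fit with the values of each pair averaged was therefore run as well. The tissue is not labelled. The 6 measured genes of photosystems, antenna and Calvin cycle were summed. Their summed intensity was 65.3 to 90.0 in high light and 53.9 to 78.6 in normal light. Within it PSBW alone averaged 54.6 in high light and 27.2 in normal light. SBPASE also averaged higher in high light, while LHB1B2, PSAN, PRK and PSBY averaged lower, so the sum shows no common direction. Fewer cells of a type and less RNA per cell cannot be told apart in such samples.

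Together the 25 genes held a similar part of the signal in both groups, while its makeup differed. Their share of the summed signal was 7.87% ± 0.269 in high light and 7.48% ± 0.476 in normal light (SD, n = 6 each). It ranged from 7.57% to 8.29% in high light, with a median of 7.89%, and from 6.85% to 7.90% in normal light, with a median of 7.66%, and the groups overlapped. The 3 brightest of the 25, AT3G09850, AT4G31530 and AT2G27290, held 4.91% ± 0.370 in high light and 4.08% ± 0.663 in normal light. The other 22 genes held 2.96% ± 0.170 in high light and 3.40% ± 0.204 in normal light. The direction of the small difference in the sum turned when probes near the ceiling in any sample, AT3G09850 and AT4G31530 among them, were left out of numerator and denominator alike. Then the remaining 23 genes held 5.07% ± 0.472 in high light and 5.15% ± 0.299 in normal light.

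**Figure D1:**
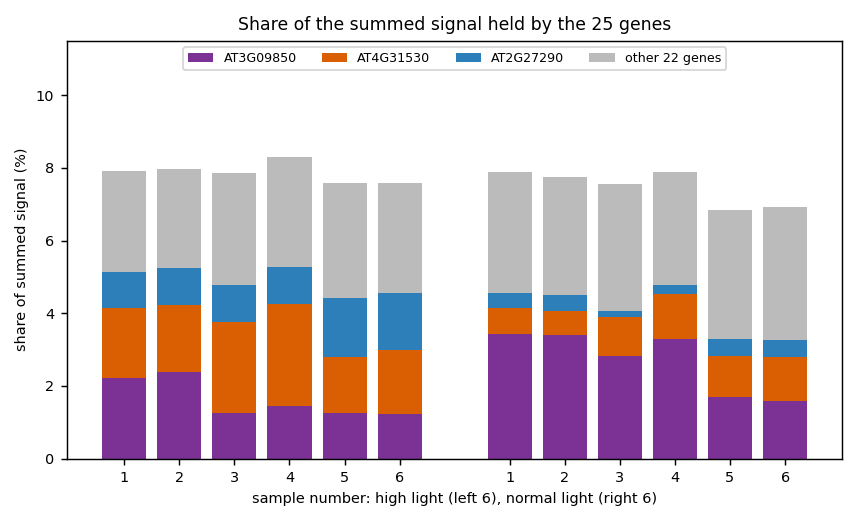
Share of the summed signal of all 3439 probes (percent, from 0) in each of the 6 high light samples (left) and the 6 normal light samples (right), stacked for AT3G09850, AT4G31530, AT2G27290 and the other 22 genes. The totals lie between 7.57% and 8.29% in high light and between 6.85% and 7.90% in normal light, while AT4G31530 and AT2G27290 take a larger and AT3G09850 a smaller part of most high light samples.

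In summed share, the other probe classes differed more between the groups than the 25 genes, except the left-out genes over the limit. These 5 genes held 2.02% ± 0.236 in high light and 2.05% ± 0.319 in normal light. Rises and falls of single probes can cancel in such sums. All other probes with 1 gene, apart from the left-out genes over the limit, held 8.37% ± 0.111 in high light and 4.37% ± 0.123 in normal light. Probes with several genes held 21.97% ± 0.234 in high light and 17.9% ± 0.281 in normal light, and probes not listed in the annotation held 59.8% ± 0.197 in high light and 68.2% ± 0.358 in normal light. Set against the signal of the 692 named probes alone, the 25 genes held 43.1% ± 1.37 in high light and 53.8% ± 3.20 in normal light. The direction of the difference thus depended on the denominator. A share is unaffected by any factor that multiplies a whole column, but not by the ceiling. Probes at or near the ceiling numbered 1.33 ± 0.816 per high light sample and 7.17 ± 0.983 per normal light sample. The ceiling thus bears unequally on the groups, and its effect on the quantile-normalised values was not tested.

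Changes of single genes were read from limma fits over all 3439 probes, with Benjamini-Hochberg adjustment over the whole table. After quantile normalisation, which gives all samples the same distribution, 10 of the 25 genes rose and 9 fell in high light at an adjusted p under 0.05. Of all probes 37.8% were called, 15.8% higher and 22.0% lower. The genes' counts are above these shares in both directions, but 7 of the 25 entered the set through 1 group, and the excess itself was not tested. With the pairs averaged, 7 genes were called, 4 higher and 3 lower, against 22.1% of all probes, 9.6% higher and 12.5% lower. Without samples 5 and 6 of both groups 13 were called, against 35.0% of all probes. On log2 shares of the summed signal 17 genes were called, 8 higher and 9 lower, where 56.4% of all probes were called, 48.3% higher and 8.05% lower, and 16 genes were called in the same direction by both fits, as were 23.1% of all probes. With the pairs averaged, 2 rose and 4 fell in shares, against 29.5% and 4.54% of all probes. The median log2 change of the 25 genes was 0.07 after quantile normalisation and 0.05 in shares, against 0.16 and 1.19 for all probes. Deposited values did not overlap between the groups for 13 of the 25 genes (9 higher, 4 lower), where this held for 48.0% of all probes (44.0% higher, 3.98% lower). In shares they did not overlap for 15 (7 higher, 8 lower), against 42.9% of all probes (37.1% higher, 5.82% lower).

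**Figure D2:**
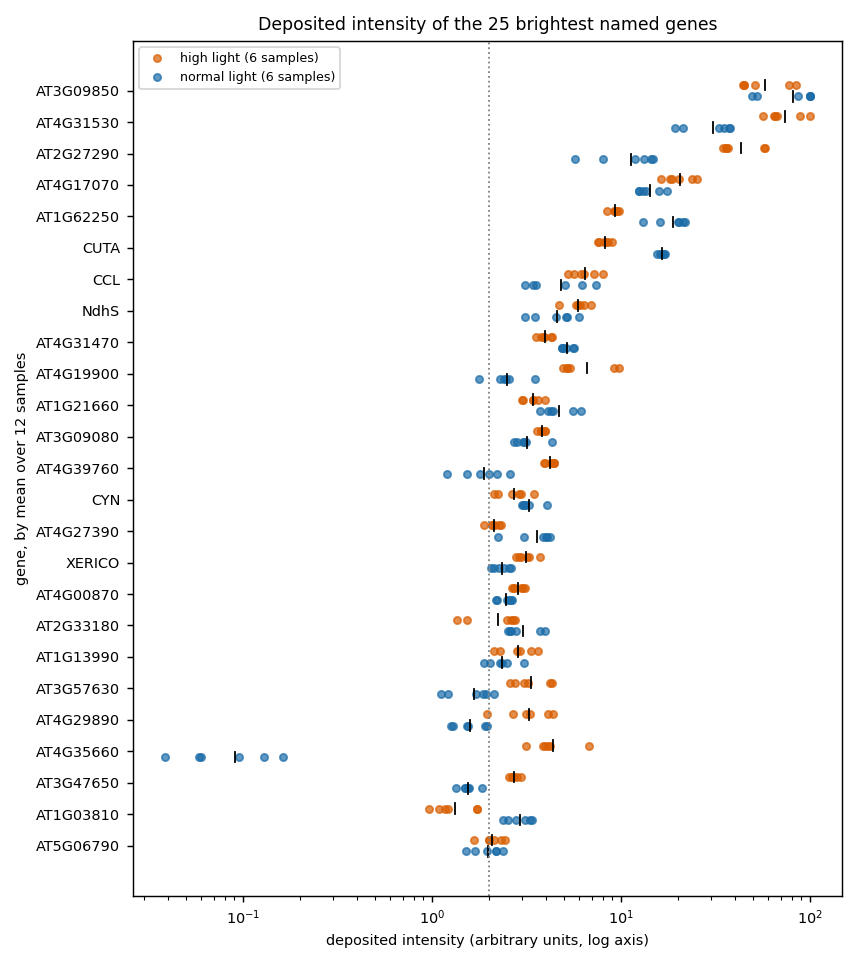
Deposited intensity (arbitrary units, log axis) of each of the 25 genes in the 6 high light samples (upper row of each gene) and the 6 normal light samples (lower row), with a black tick at each group mean and a dotted line at an intensity of 2. AT4G35660 shows the widest gap, with 3.13 to 6.77 in high light and 0.0387 to 0.163 in normal light.

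Of the 25 genes, 5 carry a symbol besides their locus name, and these are given first, by role. CUTA and NdhS encode plastid proteins. Together they held 0.398% ± 0.031 of the summed signal in high light and 0.694% ± 0.028 in normal light (SD, n = 6 each), with no overlap between 0.347% to 0.434% and 0.652% to 0.731%. CUTA fell within this pair, while the share of NdhS averaged 0.168% in high light and 0.150% in normal light.

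CUTA, a small copper-binding protein of the chloroplast, had deposited intensities of 7.51 to 8.90 in high light (median 8.24), against 15.5 to 16.98 in normal light (median 16.6). The groups were far apart, and both were tight, with coefficients of variation of 6.36% in high light and 3.42% in normal light, the lowest of the 25 genes in normal light. After quantile normalisation its log2 value fell by 0.64 (SE 0.096, limma adjusted p = 0.00034) and by 1.24 in shares (SE 0.098, adjusted p = 3.7e-06). Both calls held with the pairs averaged (adjusted p = 0.038 and 0.0089).

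NdhS (CRR31) is a subunit of the chloroplast NADH dehydrogenase-like complex, which returns electrons from ferredoxin to the plastoquinone pool. Its intensities were 4.70 to 6.92 in high light (median 5.99) and 3.12 to 6.02 in normal light (median 4.80), and the groups overlapped. Its log2 change of 0.42 after quantile normalisation did not pass the test (SE 0.164, adjusted p = 0.068), and it was 0.18 in shares (adjusted p = 0.38) and -1.08 with columns scaled to a common median, where it was called lower (adjusted p = 0.00021). Leaving out high light sample 2 or normal light sample 6 brought the quantile-normalised value past the threshold, with an adjusted p of 0.028 at the lowest. So did a filter on dim probes (limma adjusted p = 0.049) and the trend and robust settings of limma (adjusted p = 0.038). With the pairs averaged it was not called (limma adjusted p = 0.20).

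CYN, CCL and XERICO act in metabolism and signalling. Together they held 0.346% ± 0.048 in high light and 0.342% ± 0.061 in normal light, a difference smaller than the spread between samples.

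CYN, the enzyme cyanase that breaks down cyanate, had intensities of 2.13 to 3.47 in high light (median 2.76), against 2.999 to 4.07 in normal light (median 3.09). The groups overlapped in intensity but not in share, where the highest high light value was 0.0980% and the lowest normal light value 0.0988%. CYN fell by 0.55 (SE 0.165, adjusted p = 0.021) and by 0.50 in shares (SE 0.151, adjusted p = 0.016), and neither call held with the pairs averaged (adjusted p = 0.18 and 0.14).

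CCL (CCR-like) is known for a transcript whose stability follows the circadian clock, and time of day is not given in the labels. It stood at 5.26 to 8.02 in high light (median 6.25) and 3.12 to 7.34 in normal light (median 4.30), with overlap. Its rise of 0.55 (SE 0.193, adjusted p = 0.043) turned to -0.998 with a common median, where CCL was called lower (adjusted p = 0.0032), and was 0.26 in shares (adjusted p = 0.32). With the pairs averaged the rise was not called (adjusted p = 0.23). The call was lost when any of 9 of the 12 samples was left out, namely high light samples 2 to 6 and normal light samples 1 to 4 (adjusted p from 0.018 to 0.088 over all 12).

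XERICO, a RING-type protein that raises abscisic acid levels when overproduced, had intensities of 2.78 to 3.72 in high light (median 3.06) and 2.04 to 2.63 in normal light (median 2.33). The deposited groups did not overlap, but the log2 change was 0.16 after quantile normalisation (SE 0.120, adjusted p = 0.32) and 0.19 in shares (adjusted p = 0.21), and the shares overlapped. On the deposited scale it was 0.42 (adjusted p = 0.012), where the median probe stood at 1.47, and with a common median it was -1.07 and called lower (adjusted p = 4.6e-05).

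The remaining 20 genes are listed by locus name only in the annotation used, so no role is given. Their summed share was 7.12% ± 0.269 in high light and 6.44% ± 0.552 in normal light, and it ranged from 6.85% to 7.53% in high light and from 5.75% to 6.93% in normal light.

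AT3G09850 had intensities of 77.1, 83.8, 44.9, 51.4, 44.4 and 44.7 in high light samples 1 to 6. In normal light samples 1, 2 and 4 it stood at the ceiling, in sample 3 at 85.9, and in samples 5 and 6 at 52.5 and 49.2. The groups overlapped. High light samples 1 and 2 stood above the others of their group, and normal light samples 5 and 6 below the others of theirs. Its share was 1.63% ± 0.527 in high light and 2.70% ± 0.853 in normal light. The log2 change was -0.37 after quantile normalisation (SE 0.273, adjusted p = 0.29) and -0.72 in shares (SE 0.277, adjusted p = 0.046), and 0.39 with cyclic loess. It was called lower with a common median, at -1.97 (adjusted p = 0.00016), and when columns were scaled by their sum without the 34 brightest probes, at -1.05 (adjusted p = 0.013). The call in shares was lost with the pairs averaged (adjusted p = 0.21) and without any of 8 of the 12 samples, high light 3 to 6 and normal light 1 to 4. The 3 values at the ceiling give only a lower bound for the normal light group.

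AT4G31530 had intensities of 56.0 to 100 in high light (median 66.0) and 19.4 to 37.7 in normal light (median 33.9), with no overlap and 1 high light sample at the ceiling. It rose by 1.59 (SE 0.192, adjusted p = 7.9e-05) and by 1.05 in shares (SE 0.216, adjusted p = 0.0020), where the median probe stood at 1.19. With a common median the gene stood at -0.21. With the pairs averaged the adjusted p was 0.024 after quantile normalisation and 0.059 in shares. Its share was 2.07% ± 0.480 in high light and 1.01% ± 0.249 in normal light. Within the 25 genes' own sum it took 26.2% ± 5.35 in high light and 13.6% ± 3.82 in normal light, while AT3G09850 took 20.7% ± 6.44 in high light and 35.6% ± 9.48 in normal light.

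AT2G27290 had intensities of 34.8 to 57.6 in high light (median 36.3) and 5.73 to 14.8 in normal light (median 12.5), with no overlap. High light samples 5 and 6 were the highest, at 57.6 and 57.2, and normal light samples 3 and 4 the lowest, at 5.73 and 7.99. Its share was 1.21% ± 0.297 in high light and 0.374% ± 0.120 in normal light. It rose by 2.19 (SE 0.288, limma adjusted p = 0.00014) and by 1.73 in shares (SE 0.265, adjusted p = 0.00028). Both calls held with the pairs averaged (adjusted p = 0.027 on each scale). With a common median it was 0.48 higher, which did not pass the test (adjusted p = 0.19).

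**Figure D3:**
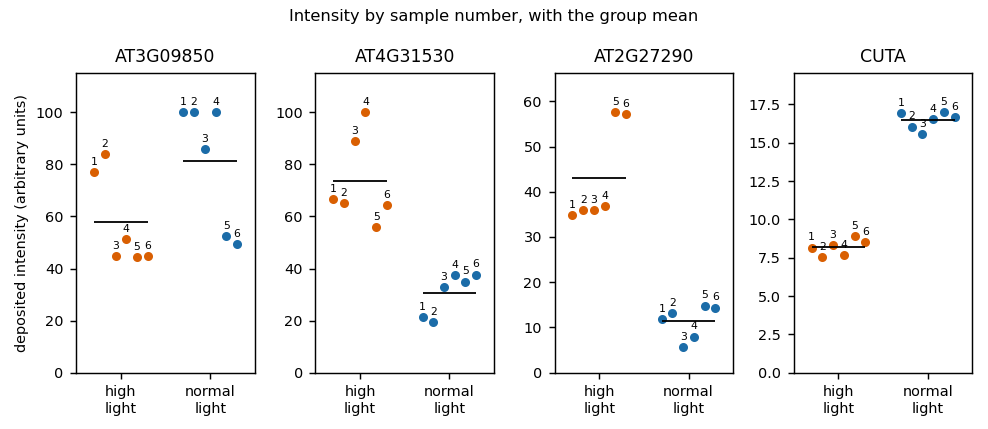
Deposited intensity (arbitrary units, linear axes from 0) of AT3G09850, AT4G31530, AT2G27290 and CUTA by group, high light left and normal light right, with the sample number at each point and a line at the group mean. Neighbouring numbers lie close together for the first 3 genes; CUTA shows 7.51 to 8.90 in high light against 15.5 to 16.98 in normal light.

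AT4G17070 had intensities of 16.2 to 25.3 in high light (median 19.4) and 12.4 to 17.6 in normal light (median 13.3), with overlap. Its rise of 0.75 (SE 0.131, adjusted p = 0.00089) turned to -0.97 with a common median, where it was called lower (adjusted p = 0.00029), and to -0.05 with the sum without the 34 brightest probes. It was not called in shares, at 0.29 (adjusted p = 0.11), and the quantile call held with the pairs averaged (adjusted p = 0.043). AT1G62250 had 8.39 to 9.78 in high light (median 9.34), against 13.1 to 21.8 in normal light (median 20.2), with no overlap and normal light samples 4 and 6 the lowest of their group. It fell by 0.66 (SE 0.151, adjusted p = 0.0048) and by 1.23 in shares (SE 0.150, adjusted p = 5.7e-05). With the pairs averaged the call held in shares (adjusted p = 0.011) and not after quantile normalisation (adjusted p = 0.064).

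AT4G31470 had intensities of 3.53 to 4.29 in high light (median 3.91), against 4.84 to 5.61 in normal light (median 5.03), with no overlap. It fell by 0.52 (SE 0.079, adjusted p = 0.00036), the change with the smallest error of the set, and its calls missed the threshold with the pairs averaged (adjusted p = 0.062, and 0.052 in shares). On chromosome 4 this gene lies 5 protein-coding genes from AT4G31530, in the order of the TAIR10.1 annotation, and the pair moved in opposite directions on the quantile, deposited and share scales. It was the closest pair among the 25 genes, of which 10 lie on chromosome 4 (40.0%, against 17.3% of all named probes).

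AT4G19900 had intensities of 4.90 to 9.78 in high light (median 5.25) and 1.78 to 3.48 in normal light (median 2.44), with no overlap and high light samples 5 and 6 well above the others of their group. It rose by 1.26 (SE 0.261, adjusted p = 0.0027), and stood at -0.13 with a common median. With the pairs averaged the adjusted p was 0.081, and 0.051 in shares. AT1G21660 had 3.005 to 3.98 in high light (median 3.41), against 3.73 to 6.10 in normal light (median 4.31), and the groups overlapped in intensity but not in share. It fell by 0.61 (SE 0.105, adjusted p = 0.00085), a call lost with the pairs averaged (adjusted p = 0.062). AT3G09080 had 3.59 to 3.95 in high light (median 3.795) and 2.73 to 4.29 in normal light (median 3.06), with overlap. Its log2 change was 0.07 (SE 0.099, adjusted p = 0.58), though -1.21 with a common median, where it was called lower (adjusted p = 5.6e-06).

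AT4G35660 and AT1G03810 stood apart at the lower end of the set, and both entered it through 1 group. AT4G35660 had intensities of 3.13 to 6.77 in high light (median 4.03), against 0.0387 to 0.163 in normal light (median 0.0774). Every high light value was far above every normal light value. It rose by 4.58 (SE 0.313, limma adjusted p = 1.8e-06) and by 5.48 in shares (SE 0.352, adjusted p = 9.4e-07). Both calls held with the pairs averaged (adjusted p = 0.0032 and 0.0028). It was the only one of the 25 genes to be called higher with a common median, at 4.22.

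AT1G03810 had intensities of 0.966 to 1.74 in high light (median 1.19), against 2.37 to 3.39 in normal light (median 2.94), with no overlap. It fell by 1.61 (SE 0.162, adjusted p = 2.4e-05) and by 1.40 in shares (SE 0.173, adjusted p = 6.6e-05), and kept both calls with the pairs averaged (adjusted p = 0.016 and 0.017). The largest fall of the 25 genes after quantile normalisation was this one.

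Among the other 9 locus-only genes, 4 were called higher, 3 lower and 2 neither way after quantile normalisation. All 4 called higher reached a mean of 2 in high light alone, so the choice of these genes favours a rise. AT4G39760 averaged 4.21 ± 0.234 in high light and 1.89 ± 0.491 in normal light, and rose by 0.87 (adjusted p = 0.0015). AT3G57630 rose by 0.67 (3.35 ± 0.720 in high light, 1.66 ± 0.408 in normal light), AT4G29890 by 0.63 (3.26 ± 0.900 in high light, 1.58 ± 0.293 in normal light) and AT3G47650 by 0.39 (2.72 ± 0.143 in high light, 1.55 ± 0.164 in normal light). All 4 rises turned below 0 with a common median, from -0.67 to -0.29, where AT3G47650 alone was called lower (limma adjusted p = 0.00098). None kept its call with the pairs averaged (adjusted p from 0.071 to 0.22). The call of AT4G29890 was also lost without any of 8 samples, numbers 1, 2, 5 and 6 of both groups.

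AT4G27390 averaged 2.12 ± 0.161 in high light and 3.57 ± 0.768 in normal light and fell by 1.03 (SE 0.154, adjusted p = 0.00034), with the call kept in the averaged fit (adjusted p = 0.019). AT2G33180 averaged 2.24 ± 0.631 in high light and 3.03 ± 0.636 in normal light and fell by 0.81 (adjusted p = 0.019). This call was lost with the pairs averaged (adjusted p = 0.18), on the deposited scale (adjusted p = 0.097) and without samples 5 and 6 (adjusted p = 0.069). AT5G06790 averaged 2.09 ± 0.275 in high light and 1.98 ± 0.330 in normal light. Its fall of 0.34 after quantile normalisation (adjusted p = 0.044) turned to a value 0.08 higher on the deposited scale, which did not pass the test (adjusted p = 0.64). The fall was not called in shares, at -0.15 (adjusted p = 0.39), nor with the pairs averaged (adjusted p = 0.18), nor without any of 9 samples, all but high light 1 and 5 and normal light 2. AT4G00870 (2.86 ± 0.196 in high light, 2.45 ± 0.202 in normal light) and AT1G13990 (2.86 ± 0.591 in high light, 2.35 ± 0.421 in normal light) had log2 changes of -0.05 and -0.02, and neither passed the test (adjusted p = 0.65 and 0.90). With a common median both were called lower, AT4G00870 at -1.27 (adjusted p = 1.2e-06) and AT1G13990 at -1.21 (adjusted p = 0.00010), and with the sum without the 34 brightest probes AT4G00870 was called lower at -0.35 (adjusted p = 0.011).

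**Figure D4:**
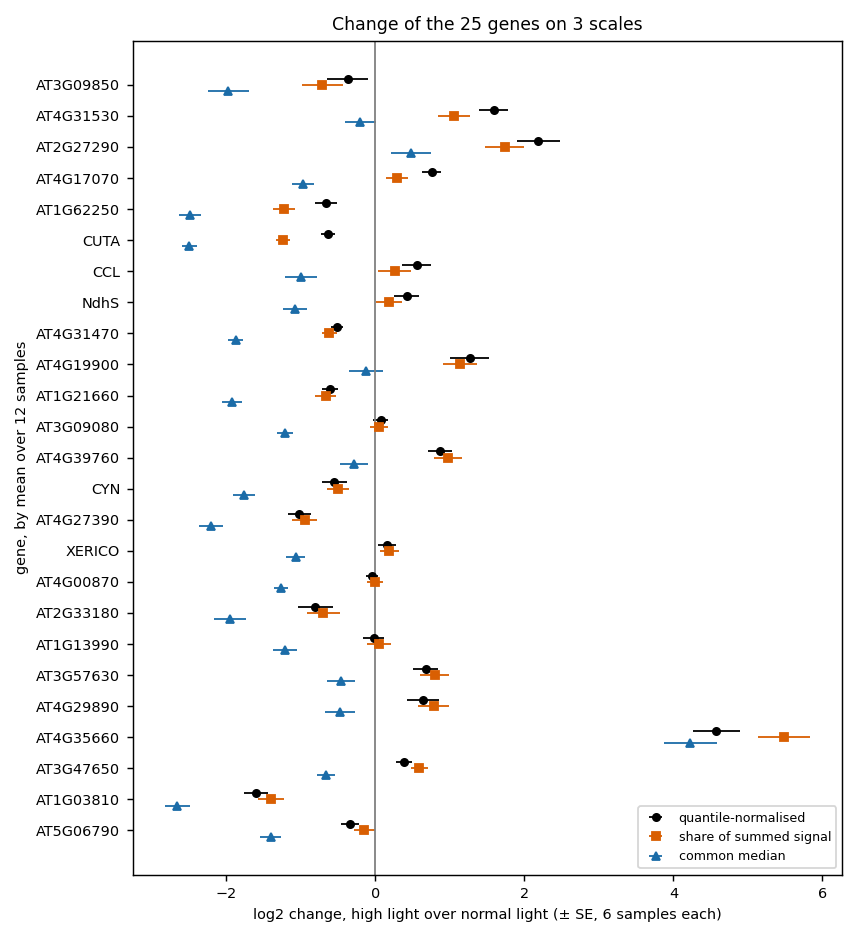
Log2 change of each of the 25 genes, high light over normal light, with its SE (limma, 6 samples each), after quantile normalisation, in shares of the summed signal and with columns scaled to a common median. On the common median scale 23 of the 25 changes lie below 0, with a median of -1.21; AT2G27290 and AT4G35660 lie above 0 on all 3 scales.

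The choice of scale decided the direction for many of these genes. With a common median 1 gene rose and 18 fell, where 11.4% of all probes rose and 26.5% fell, and on the deposited scale 10 rose and 6 fell, where 49.4% rose and 5.64% fell. On the quantile, deposited, share and cyclic loess scales 14 genes were called in 1 direction, as were 19.5% of all probes; cyclic loess alone called 36.2%. Adding the common median to these 4 scales left 7, against 14.7% of all probes, namely AT4G35660, which rose, and CUTA, AT1G62250, AT4G31470, AT1G21660, AT4G27390 and AT1G03810, which fell. With the sample number as a replicate block 15 of the 25 genes were called, against 34.7% of all probes. The part that the shift of the column medians has in these changes was not tested.

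Of the 12 pathway lists used here, 6 held a gene that was measured under its name, 8 genes in all. None of these is among the 25. PSBW, PSBY, PSAN, LHB1B2 and PRK were left out of the set by name, so their absence is not a result. Of the 8 genes, PSBW of photosystem II and AT-HF of histidine synthesis were called higher after quantile normalisation. PRK of the Calvin cycle, CHLM of chlorophyll synthesis, the antenna gene LHB1B2, PSAN of photosystem I and PSBY of photosystem II were called lower, and SBPASE of the Calvin cycle did not pass the test (adjusted p = 0.14). In shares CHLM was not called, at -0.19 (adjusted p = 0.56), and SBPASE was called higher, at 1.26 (adjusted p = 0.0011).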

How the data were processed

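Total RNA of 12 samples was measured on expression arrays. The deposited table holds linear intensities per probe. The background correction and scaling by the authors are not given in the sources used here. Gene names came from the platform annotation, with symbols from the RefSeq table of TAIR10.1: 1 gene was given for 692 probes, several for 870 and none for 1877. The table held 690 of the 692, among them all 25 genes reported. The number of arrays limits the precision.

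Column medians differed by a factor of 3.10, above the limit of 1.1 set for keeping deposited values, so columns were quantile-normalised. Zeros were set to the lowest positive value, 9.02e-06, and limma 3.58.1 under R 4.3.3 was run on log2 values (lmFit, eBayes, 2-sided, Benjamini-Hochberg over 3439 probes, threshold 0.05). The same fit was run on shares, each value as a percent of its column's sum as deposited. "Rose" and "fell" mean called after quantile normalisation unless a scale is named. Summed shares carry no test. The fit was also run on simulated data with independent samples, no ceiling and no shift of the column medians. That run cannot show how the fit deals with the resembling pairs, the ceiling or the shift in these data. A value of at least 99% of the maximum counted as near the ceiling.

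Values by sample are given for the 12 brightest genes, those with a symbol, and called genes whose groups did not overlap and whose direction was the same on the quantile, deposited, common median and share scales. CYN and XERICO were added after their values were seen. Members, lists and scales were chosen with earlier results of these data known. A check for pairing by number gave correlations of -0.0063 to 0.065 between the deviations of equal numbers, so the numbers were not used as pairs. Alternatives were other scalings, an offset, a filter on dim probes, other limma settings, a replicate block, averaged pairs, left-out samples and an exact rank-sum test. A further list of marker genes of other organs is not reported here.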

Additional observations from a re-analysis of the deposited data

Results flagged for a closer look

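Of 52 sets of 6 values (each gene, and the summed share, in each group), 2 had a sample apart from the remaining 5, measured as its gap to the nearest one over the whole range of log2 deposited intensities; chance alone gives about 1 in 20. Both were normal light sample 6. AT3G09080 stood there at 4.29, against 2.73 to 3.12 in the other normal light samples (gap over range 0.699). CYN stood at 4.07, against 2.999 to 3.25 in the others (0.738).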

How the results depend on the processing

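The sample 5 and 6 exclusion and all counts of called members under alternatives were added after the data were seen. The 1300 probes called (543 higher, 757 lower) became 759 with pairs averaged (330, 429); 1698 were higher and 194 lower on the deposited scale, 1661 and 277 in shares, and 1047 and 412 with the sum without the brightest probes. Leaving out 1 sample gave 1190 to 1321 (479 to 574 higher, 706 to 761 lower). Of the 25 genes, 19 were called (10 higher, 9 lower); pairs averaged gave 7 (4 higher, 3 lower), a common median 1 higher and 18 lower, the trimmed sum 5 higher and 11 lower, and leaving out 1 sample 16 to 18 (8 to 10 higher, 8 to 9 lower). Without samples 5 and 6, 13 were called.

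The summed share differed by 0.39 percentage points (high light minus normal light), and by -10.7 over named probes alone, -0.082 without probes near the ceiling, 1.47 with a limit of 1, and 0.27 to 0.48 with 1 sample left out. For the plastid pair, -0.296 became -2.82 over named probes and -0.464 without probes near the ceiling (-0.305 to -0.286 with 1 sample left out). For CYN, CCL and XERICO, 0.0042 became -0.568 and -0.045 under the same settings, and -0.012 to 0.024 with 1 sample left out. For the locus-only genes, 0.68 became -7.32 over named probes and 1.59 with a limit of 1 (0.54 to 0.78 with 1 sample left out). Choosing the members by mean share gave the same sums. The causes were not tested.

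Log2 changes that turned with a common median were those of AT4G31530 (-0.21), AT4G17070 (-0.97), CCL (-0.998), NdhS (-1.08), AT4G19900 (-0.13), AT3G09080 (-1.21), AT4G39760 (-0.29), XERICO (-1.07), AT3G57630 (-0.46), AT4G29890 (-0.48) and AT3G47650 (-0.67). With the trimmed sum AT4G17070 (-0.049), CCL (-0.078), NdhS (-0.16), AT3G09080 (-0.29) and XERICO (-0.15) turned. AT3G09850 turned with cyclic loess (0.39), as did AT4G00870 (0.019) and AT1G13990 (0.059). AT4G00870 (0.22), AT1G13990 (0.28) and AT5G06790 (0.083) turned on the deposited scale, and AT1G13990 also in shares (0.046) and, with 1 sample left out, between -0.098 and 0.056.

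With the sample number as a replicate block, 1195 probes (490 higher, 705 lower) and 15 of the 25 genes (7 higher, 8 lower) were called; CCL, AT4G29890, AT3G47650 and AT5G06790 lost their calls (limma adjusted p = 0.069, 0.11, 0.057 and 0.064). For 4 of 12 samples the highest correlation was with the same number of the other group.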
